A study of Mus musculus with 10 samples.

Results

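The gasdermin genes of mouse skin were followed in Klk6+ transgenic mice and WT controls. Membership was set by gene symbol: Gsdma, Gsdma2 and Gsdma3 on chromosome 11, Gsdmc, Gsdmc2, Gsdmc3 and Gsdmc4 on chromosome 15, and Gsdmd, also on chromosome 15, which makes 8 of the 20611 genes listed per mouse. RNA from whole skin was sequenced in 10 mice, 1 library each. The Klk6+ group held 3 males (replicates 1 to 3) and 2 females (replicates 4 and 5), and the WT group had the same make-up. Klk6+ mice carried a Tetos-Klk6 transgene, encoding Myc/His-tagged mouse kallikrein-related peptidase 6, together with the K5-tTA driver, in which a bovine keratin 5 promoter active in epidermal keratinocytes and some other stratified epithelia makes the transactivator that doxycycline silences. WT stands here for littermates with no transgene or with 1 of the pair, which is then not expressed, so the controls were of mixed genotype. The lines were kept by backcrossing to C57BL/6, and Klk6+ mice were bred under doxycycline, since matings without it gave no transgenic young. Per the labels' protocols, Klk6+ mice were returned to doxycycline chow at 10 to 11 weeks, shortly before they would have stopped eating, and skin was taken at 14 to 16 weeks of age. That protocol speaks of Klk6+ mice and does not state the chow of the controls.

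Gasdermins are made as inactive proteins in which a C-terminal part holds an N-terminal part in check. When a protease cuts the linker between them, the N-terminal part inserts into membranes and assembles pores, through which interleukin 1 family cytokines leave and which can end in lytic cell death, called pyroptosis. Gasdermin D is the form cut by the inflammatory caspases, in macrophages above all. Gasdermin A is the form typical of skin epithelium, and dominant mutations of Gsdma3 cause hair loss and skin inflammation in mice.

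The members fall into tandem groups of near copies, and this bears on every count below, since a read that matches more than 1 copy can be dropped or shared out. The gasdermin A genes lie head to tail on the plus strand within 51.3 kb (GRCm38, chromosome 11, 98626360 to 98677708, in the order Gsdma3, Gsdma2, Gsdma). The gasdermin C genes lie on the minus strand within 136.3 kb (chromosome 15, 63775968 to 63912297, in the order Gsdmc, Gsdmc2, Gsdmc3, Gsdmc4). Gsdmd stands apart on the plus strand (chromosome 15, 75862327 to 75867408), and no exon of any of the 8 genes overlaps an exon of another gene in GENCODE M21. The first 60 bases of each coding sequence, from the GENCODE M21 transcripts, show how alike the copies are. Capitals mark bases that differ from Gsdma at the same position in the gasdermin A group, and from Gsdmc in the gasdermin C group.
Gsdma: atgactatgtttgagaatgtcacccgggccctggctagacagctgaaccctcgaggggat
Gsdma2: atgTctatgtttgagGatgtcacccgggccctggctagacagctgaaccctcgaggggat
Gsdma3: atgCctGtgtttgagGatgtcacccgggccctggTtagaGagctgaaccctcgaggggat
Gsdmc: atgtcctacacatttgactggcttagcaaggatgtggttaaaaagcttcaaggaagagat
Gsdmc2: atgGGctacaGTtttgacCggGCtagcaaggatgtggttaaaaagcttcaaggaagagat
Gsdmc3: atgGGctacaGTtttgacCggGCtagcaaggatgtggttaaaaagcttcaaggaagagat
Gsdmc4: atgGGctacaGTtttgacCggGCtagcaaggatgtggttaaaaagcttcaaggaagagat
Gsdmd: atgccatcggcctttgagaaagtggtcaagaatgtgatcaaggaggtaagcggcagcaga

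Over this stretch Gsdma2 differed from Gsdma at 2 bases and Gsdma3 at 5, while Gsdmc2, Gsdmc3 and Gsdmc4 differed from Gsdmc at the same 7 bases and not from each other. Over the whole coding sequence Gsdmc2 and Gsdmc3 were 97.1% identical, with 42 differences in 1440 bases, and either was 93.8% identical to Gsdmc4. Gsdmc stood further off, at 87% to 88.1%, and the gasdermin A genes were 89% to 91.4% identical to each other. The stretch where Gsdmc2 and Gsdmc3 differ most, coding bases 819 to 878, shows where reads of 50 bases can tell them apart, with capitals at the 11 bases that differ.
Gsdmc2: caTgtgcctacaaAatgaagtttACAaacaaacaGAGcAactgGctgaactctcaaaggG
Gsdmc3: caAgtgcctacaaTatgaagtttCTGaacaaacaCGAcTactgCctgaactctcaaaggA

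Of all 50-base windows of the longest coding transcript, 48.5% for Gsdmc2, 46.9% for Gsdmc3 and 39% for Gsdmc4 were also found in another gasdermin gene or pseudogene of GENCODE M21. The share was 16.4% for Gsdmc, 8.26% for Gsdma, 10.1% for Gsdma2 and 5.25% for Gsdma3. Gsdmd shared 0 of its 1743 windows. Single values of Gsdmc2, Gsdmc3 and Gsdmc4 are therefore uncertain, and each group of near copies is also given as a sum.

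The tables gave a read count and an FPKM value per gene (fragments scaled by the authors to transcript length and sequencing depth). Total counts were 26521019 to 39796511 in Klk6+ and 32798416 to 41970272 in WT libraries, and CPM values below are counts divided by library size, after scaling for library composition. Klk6 itself, the check of the genotype labels, stood at 10290 to 14770 CPM in Klk6+ and 12.7 to 26.5 CPM in WT libraries. It was thus high after the stated return to doxycycline, which silences the driver, and the labels do not make clear how long each mouse had been back on it. Whether the transgene was still active at collection cannot be read from them. Of the 14861 genes with enough counts to be tested by edgeR's quasi-likelihood test with sex as a covariate, 72.8% passed an adjusted p of 0.05 (Benjamini-Hochberg over all genes tested), 37.7% higher and 35.1% lower in Klk6+. In bulk skin, fewer cells of a type and less RNA per cell cannot be told apart. Nothing in the labels says whether the mice came from separate litters or were handled together.

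All 8 gasdermin genes passed that threshold, 7 of them higher and 1, Gsdmd, lower in Klk6+. The 3 gasdermin A genes rose 2.96-fold to 9.05-fold, the 4 gasdermin C genes rose 55.6-fold to 76.0-fold over WT means of 1.53 CPM or less, and Gsdmd was 2.14-fold higher in WT. For 7 of the 8 genes the libraries of the 2 genotypes did not overlap in CPM, all 7 with Klk6+ above WT. Of all genes tested 57.0% did not overlap, 30.1% with Klk6+ above and 27.0% with Klk6+ below WT. Gsdmc2, Gsdmc3 and Gsdmc4, with at most 15, 4 and 8 counts in any WT library, passed the filter on low counts through the Klk6+ group alone, so their call follows in part from the filter.

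**Figure D1:**
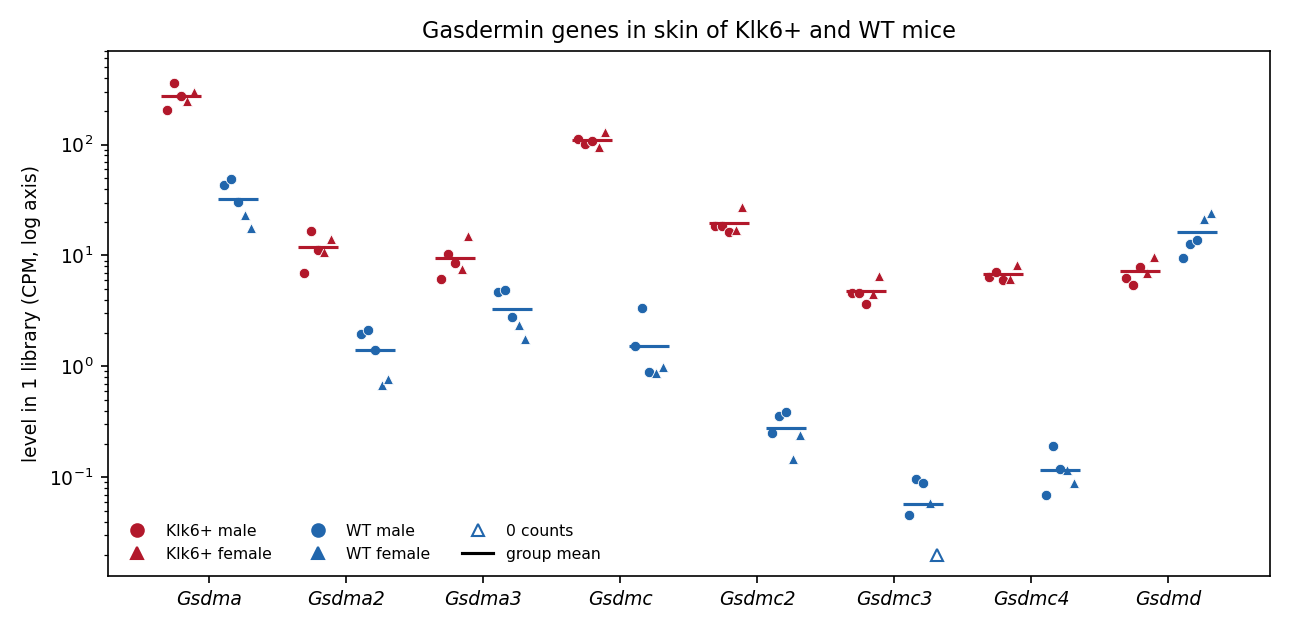
Level of each gasdermin gene in each of 10 libraries in CPM on a log axis, Klk6+ in red to the left of WT in blue, with circles for males, triangles for females and a bar for the mean of 5 libraries; an open symbol at the foot marks a library with 0 counts. The 4 gasdermin C genes show the widest gap between genotypes, and Gsdmd is the only gene placed lower in Klk6+.

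The gasdermin A genes come first. Gsdma encodes the gasdermin of upper epidermis and hair follicle that the streptococcal protease SpeB can cut, and it was the most abundant member. It had 204, 358.5, 272, 249 and 297 CPM in Klk6+ libraries 1 to 5, against 43.6, 48.5, 30.1, 23.1 and 17.6 CPM in WT libraries 1 to 5. The lowest Klk6+ library was 4.2 times the highest WT library, and among the WT libraries both females lay below all males. The log2 fold change was 3.16 ± 0.25 (SE; edgeR adjusted p = 2.62e-06). Only 2.33% of the tested genes had a log2 fold change as high or higher.

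Gsdma2, the copy that lies between the other two, had 6.91, 16.6, 11.1, 10.7 and 14.0 CPM in Klk6+, against 1.97, 2.14, 1.41, 0.673 and 0.776 CPM in WT. The groups did not overlap, and the log2 fold change of 3.18 ± 0.35 (edgeR adjusted p = 1.85e-05) was close to that of Gsdma. Gsdma3, the member tied to hair loss by its mutations, had 6.15, 10.2, 8.5, 7.56 and 15.1 CPM in Klk6+, against 4.64, 4.93, 2.78, 2.37 and 1.76 CPM in WT. Its groups were the closest of the 7 that rose, with the lowest Klk6+ library at 1.25 times the highest WT library. The log2 fold change was 1.57 ± 0.34 (edgeR adjusted p = 0.00205). Summed, the gasdermin A genes averaged 297.5 ± 63.2 CPM in Klk6+ and 37.3 ± 15.3 CPM in WT (SD, n = 5 each). The log2 fold change of this sum was 3.07 ± 0.26 (edgeR adjusted p = 3.43e-06).

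Within the gasdermin A group the make-up of the counts changed. Gsdma3 held 2.83%, 2.65%, 2.91%, 2.83% and 4.62% of the summed gasdermin A counts in Klk6+ libraries, against 9.24%, 8.87%, 8.10%, 9.07% and 8.77% in WT libraries. The WT shares lay within a narrow band although the summed level varied 2.77-fold among them, and every Klk6+ share lay under that band. The mean share was 3.17% ± 0.818 in Klk6+ and 8.81% ± 0.435 in WT (SD, n = 5 each). A two-sided exact permutation test gave p = 0.00794, which no arrangement of these 10 libraries can go below, and 0.0318 adjusted over the 8 shares tested. Gsdma held the larger share in its place, with 92.9% ± 1.08 in Klk6+ and 87.5% ± 0.578 in WT (n = 5 each; the same exact permutation p and adjusted p). The share of Gsdma2 was 3.92% ± 0.459 in Klk6+ and 3.66% ± 0.616 in WT, and the libraries overlapped (n = 5 each; exact permutation p = 0.50). Shares of FPKM, which allow for transcript length, gave Gsdma3 5.91% ± 1.46 of the group in Klk6+ and 15.7% ± 0.745 in WT (SD, n = 5 each). Such shares are measured inside each library and do not depend on library scaling.

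**Figure D2:**
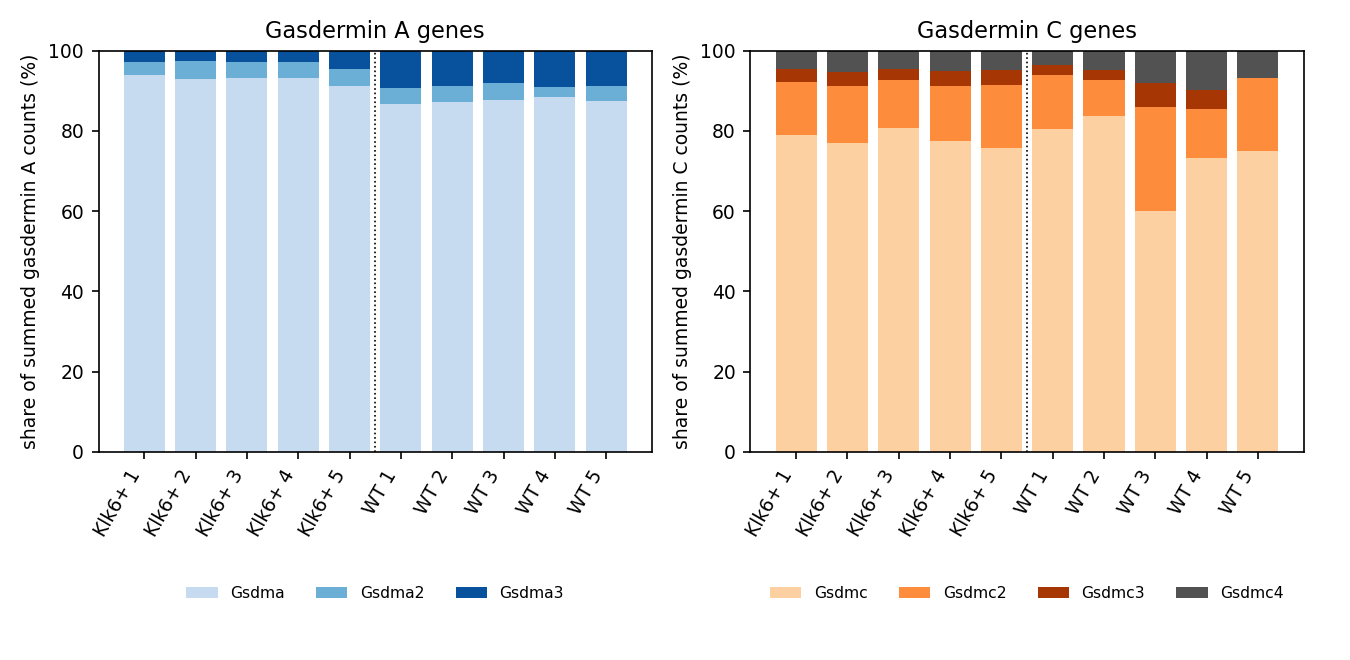
Share of each gene, in percent, in the summed counts of the gasdermin A group (left) and the gasdermin C group (right), 1 bar per library, with the 5 Klk6+ libraries left of the dotted line and the 5 WT libraries right of it. The dark blue part, Gsdma3, is 2.65% to 4.62% of the bar in Klk6+ and 8.10% to 9.24% in WT; the gasdermin C parts vary most among the WT libraries, whose summed counts are 41 to 167.

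The gasdermin C genes showed the largest differences. The human protein, GSDMC, is cut by caspase 8, and the mouse genes are known from intestinal epithelium, where type 2 cytokines raise them. Gsdmc had 111.5, 102.1, 108, 95.3 and 130.4 CPM in Klk6+, against 1.52, 3.37, 0.897, 0.878 and 0.985 CPM in WT. These came from 2931 to 4104 counts per Klk6+ library and 30 to 140 counts per WT library. The Klk6+ libraries lay within 1.37-fold of each other, while the WT libraries spread over 3.84-fold, with WT 2 apart from the rest. The log2 fold change of 6.18 ± 0.37 (edgeR adjusted p = 6.43e-07) placed Gsdmc 97th from the top among the 14861 genes tested.

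The other gasdermin C genes moved by a like amount from lower levels. Gsdmc2 had 18.6, 18.5, 16.3, 16.8 and 27.1 CPM in Klk6+, against 0.253, 0.361, 0.389, 0.146 and 0.239 CPM in WT (log2 fold change 6.11 ± 0.28, edgeR adjusted p = 1.70e-07). Gsdmc3 had 132 to 175 counts in each Klk6+ library, against 2, 4, 3, 2 and 0 counts in WT libraries 1 to 5. Summed over libraries and scaled, the Klk6+ to WT ratio of Gsdmc3 was 79.3, with an exact 95% counting interval of 44.1 to 159.5. Gsdmc4 had 198 to 227 counts in each Klk6+ library, against 3, 8, 4, 4 and 3 counts in WT, a ratio of 56.5 with an interval of 37.1 to 90.5. These intervals hold counting error alone, and reads that carry no molecular identifier may repeat 1 molecule. The log2 fold changes were 6.25 ± 0.42 for Gsdmc3 and 5.80 ± 0.27 for Gsdmc4 (edgeR adjusted p = 9.67e-07 and 2.04e-07).

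Read as a sum, the gasdermin C genes had 141, 132, 134, 123 and 172 CPM in Klk6+, against 1.88, 4.02, 1.495, 1.20 and 1.31 CPM in WT, so that the lowest Klk6+ library was 30.55 times the highest WT library. The log2 fold change of the sum was 6.18 ± 0.33 (edgeR adjusted p = 4.16e-07). No share within this group passed the test. Gsdmc held 78.0% ± 1.90 of the sum in Klk6+ and 74.5% ± 9.15 in WT (SD, n = 5 each; exact permutation test, p = 0.524). The WT shares ranged from 60% to 83.8% on sums of 41 to 167 counts, so a shift of a few percentage points was not detectable at this depth. For Gsdmc2, Gsdmc3 and Gsdmc4 the exact permutation p was 0.611, 0.865 and 0.143.

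Gsdmd, whose product is the pore former downstream of caspase 1 and caspase 11, was the 1 member that fell. It had 6.32, 5.36, 7.95, 6.97 and 9.65 CPM in Klk6+, against 9.39, 12.6, 13.7, 21.2 and 24.1 CPM in WT. The groups overlapped through Klk6+ 5, a female, and WT 1, a male; within males and within females they did not overlap. The log2 fold change was -1.10 ± 0.18 (edgeR adjusted p = 0.00035), and 19.2% of the tested genes fell as far or further. In the same libraries the 11 macrophage and monocyte markers all fell, with a median log2 fold change of -2.06, and their summed level was 575 to 1862 CPM in Klk6+ and 1726 to 8764 CPM in WT. Ranked by this sum, the 10 libraries stood in the same order as by Gsdmd, apart from Klk6+ 1 and Klk6+ 2, which changed places. The part of macrophage content in the fall of Gsdmd was not tested. Of the 10 neutrophil markers tested 9 rose, and their summed level was 75.6 to 411.9 CPM in Klk6+ and 35.9 to 60.2 CPM in WT. Mpo, Ngp, Fpr1, Camp and Mmp8 had 14, 16, 38, 48 and 65 counts over all WT libraries. They passed the filter on low counts through the Klk6+ group, so their call follows in part from the filter. The WT sum was mostly Mmp9, at a mean of 35.3 CPM in WT and 28.3 CPM in Klk6+, which was not called. These neutrophil markers were named after their values were seen. Of the 7 dendritic and Langerhans cell markers 6 fell, and of the 5 T cell markers 4 fell. Beside these marker counts, 37.7% of all genes tested were called higher and 35.1% lower.

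The gasdermin A and C genes were set beside epithelial markers in the same way. Each count of markers here is to be read beside 37.7% higher and 35.1% lower among all genes. Of 14 suprabasal keratinocyte markers 8 rose and 5 fell, with a median log2 fold change of 2.10. Their summed level overlapped between genotypes, at 8975 to 17430 CPM in Klk6+ and 6102 to 16970 CPM in WT. That sum was mostly Krt1 and Krt10, with Krt77 in WT, and these moved in opposite ways. Krt1 averaged 6212 CPM in Klk6+ and 1013 CPM in WT. Krt10 averaged 3192 and 4764 CPM, and Krt77 54.7 and 2527 CPM. The summed gasdermin A level was 217 to 385.2 CPM in Klk6+ and 20.1 to 55.6 CPM in WT over those libraries. In WT 1 to 5 the suprabasal sum was 16970, 15500, 11200, 9319 and 6102 CPM. Summed gasdermin A there was 50.2, 55.6, 34.3, 26.1 and 20.1 CPM, the same order apart from WT 1 and WT 2. In Klk6+ 1 to 5 the suprabasal sum was 17430, 16580, 13930, 8975 and 15300 CPM. Klk6+ 1 was highest by this sum and lowest by gasdermin A, and the other Klk6+ libraries kept the same order. Of 9 hair inner root sheath markers 2 rose and 7 were not called, with a median log2 fold change of 3.02. Their sum was 64.8 to 5025 CPM in Klk6+ and 102 to 398 CPM in WT. By library that sum was 568.9, 5025, 71.2, 1029 and 64.8 CPM in Klk6+ 1 to 5. Klk6+ 1, 2 and 4 thus lay above every WT library, and Klk6+ 3 and 5 below. In the same order summed gasdermin A stood at 217, 385.2, 292, 267 and 326 CPM. Summed gasdermin C stood at 141, 132, 134, 123 and 172 CPM. Both gasdermin sums lay above every WT library. Sebaceous gland markers rose in 11 of 12 cases, with a median log2 fold change of 2.41, and 1 was not called. Their summed levels were 9721 to 26390 CPM in Klk6+ and 2995 to 6781 CPM in WT. Of 8 basal keratinocyte markers 3 rose (Krt14, Krt5, Itga6) and 3 fell (Krt15, Dst, Col17a1), with a median log2 fold change of 0.20. Their sum, 13340 to 19390 CPM in Klk6+ and 4004 to 10470 CPM in WT, was mostly Krt14 and Krt5. Of 12 hair shaft markers 2 rose (Krt35, Msx2) and 10 were not called, with a median log2 fold change of 2.32. Their sums were 8.26 to 965.3 CPM in Klk6+ and 15.5 to 83.3 CPM in WT. Of 7 outer root sheath and bulge markers 1 rose, 2 fell (Lgr5, Cd34) and 4 were not called, with a median of -0.13. Their sum, 4255 to 10090 CPM in Klk6+ and 814.5 to 1092 CPM in WT, was mostly Krt6a in Klk6+, at a mean of 7479 CPM in Klk6+ and 222.8 CPM in WT. Krt6a is a keratin also made by stressed epidermis. These markers were named after their values were seen. No marker of any list was at 0 in all libraries of a genotype. The part of these tissue compartments in the gasdermin rises was not tested. Skeletal muscle markers fell in 16 of 16 cases, with summed levels of 4714 to 9257 CPM in Klk6+ and 61390 to 92220 CPM in WT. With those genes and Klk6 taken out of the counts all 8 gasdermin calls stood. That step left all other muscle genes in the counts, and the part of muscle content in the gasdermin differences was not tested.

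**Figure D3:**
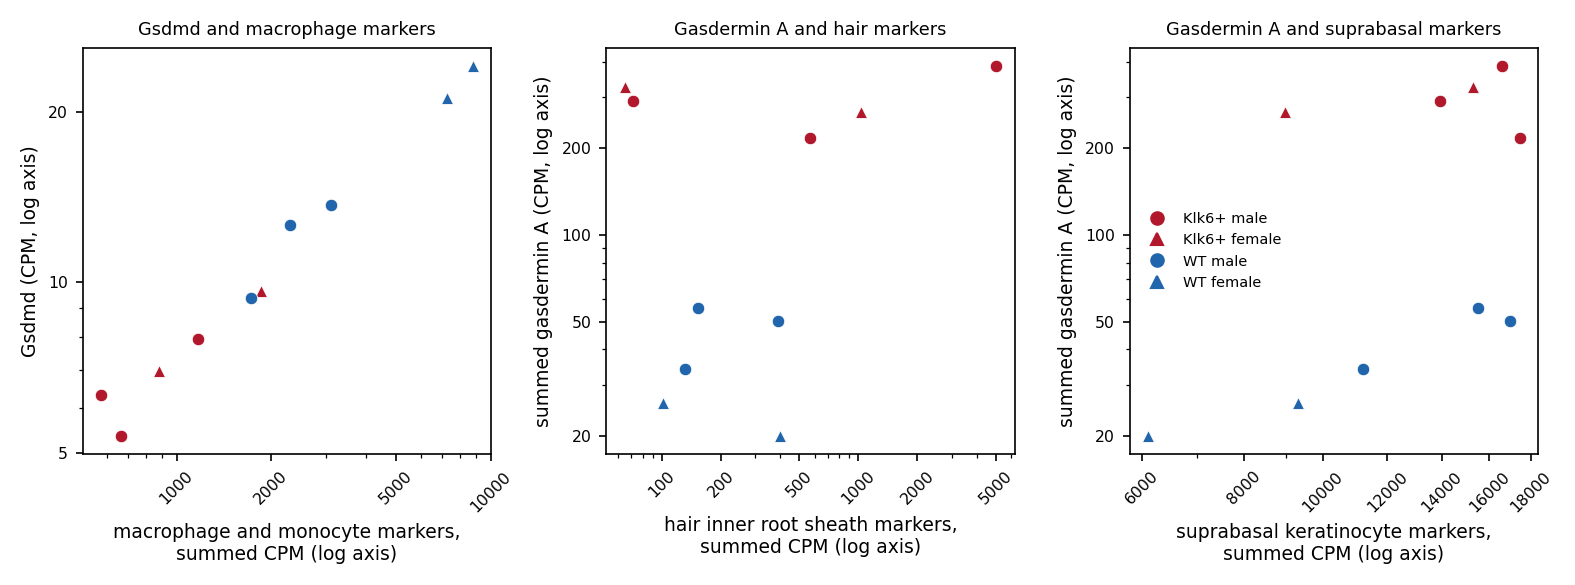
Each point is 1 library, Klk6+ in red and WT in blue, circles for males and triangles for females, all axes logarithmic in CPM. Left, Gsdmd against the summed macrophage and monocyte markers, where the libraries form 1 rising band; middle and right, summed gasdermin A genes against hair inner root sheath and suprabasal keratinocyte markers, where the 5 Klk6+ libraries, at 217 to 385.2 CPM, lie above all WT libraries; the hair marker sums of Klk6+ lie outside the WT range, 2 below and 3 above it, and the suprabasal sums overlap.

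Per length, the order of the members differed between genotypes. In Klk6+ skin Gsdma stood highest at 94.4 ± 17.9 FPKM, followed by Gsdmc at 43.4 ± 5.75 FPKM (SD, n = 5), in that order in 5 of 5 libraries. Gsdmc2 at 8.54 ± 2.04, Gsdma2 at 6.98 ± 2.05 and Gsdma3 at 6.45 ± 2.41 FPKM came next and could not be ordered, since their libraries overlapped. Gsdmd at 3.99 ± 0.968 FPKM lay 6th, above Gsdmc4 in 4 of 5 libraries, and Gsdmc3 was lowest at 2.14 ± 0.509 FPKM. In WT skin Gsdma at 11.0 ± 4.37 and Gsdmd at 8.83 ± 3.42 FPKM led and could not be ordered, with Gsdma above Gsdmd in the 3 males and below it in the 2 females. Gsdma3 at 2.21 ± 0.931 and Gsdma2 at 0.814 ± 0.385 FPKM followed, then Gsdmc at 0.596 ± 0.396 FPKM, and the other gasdermin C genes stood at or below a mean of 0.116 FPKM. All 8 genes together summed to 139.0, 188.4, 160.4, 156.7 and 200.5 FPKM in Klk6+ libraries, against 25.6, 28.5, 20.9, 22.2 and 21.3 FPKM in WT libraries. The WT sums lay closer together than those of Gsdma or Gsdmd alone, which stood in opposite order in males and females. By counts, gasdermin C genes made up 25.3% to 38.7% of all gasdermin counts in Klk6+ and 2.47% to 5.57% in WT libraries. Gsdmd made up 1.03% to 1.90% in Klk6+ and 15.3% to 52.95% in WT libraries.

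Genotype effects were then taken within each sex. For all 8 genes the log2 fold change was larger in size in females, for example 3.75 ± 0.33 in females and 2.77 ± 0.25 in males for Gsdma, 6.92 ± 0.54 and 5.78 ± 0.41 for Gsdmc, and -1.45 ± 0.26 and -0.86 ± 0.21 for Gsdmd. That count was not compared with all genes tested. Near copies within a group can share reads, so the 8 are not independent, and each female value rests on 2 mice per genotype. All 8 genes passed adjusted p of 0.05 within each sex, where 64.4% of all tested genes did so in males and 59.6% in females. The difference between the sexes was not called for any of them. Gsdma2 (difference 1.45 ± 0.52), Gsdma3 (1.45 ± 0.53), Gsdma (0.98 ± 0.38) and Gsdmc2 (1.08 ± 0.45) had unadjusted p of 0.0213 to 0.0391, and the adjusted p of the 8 genes was 0.425 or higher in edgeR. No gene of the 14861 passed for this interaction, and 1410 had an unadjusted p below 0.05. Gsdma averaged 273 CPM in females and 278 CPM in males among Klk6+ mice, and 20.3 CPM in females and 40.8 CPM in males among WT mice, so that the sexes lay further apart among controls. In the same WT libraries, suprabasal keratinocyte marker sums were 11200 to 16970 CPM in males and 6102 to 9319 CPM in females. Basal keratinocyte marker sums were 6971 to 10470 CPM in males and 4004 to 6490 CPM in females. The part of epidermal content in this gap was not tested.

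**Figure D4:**
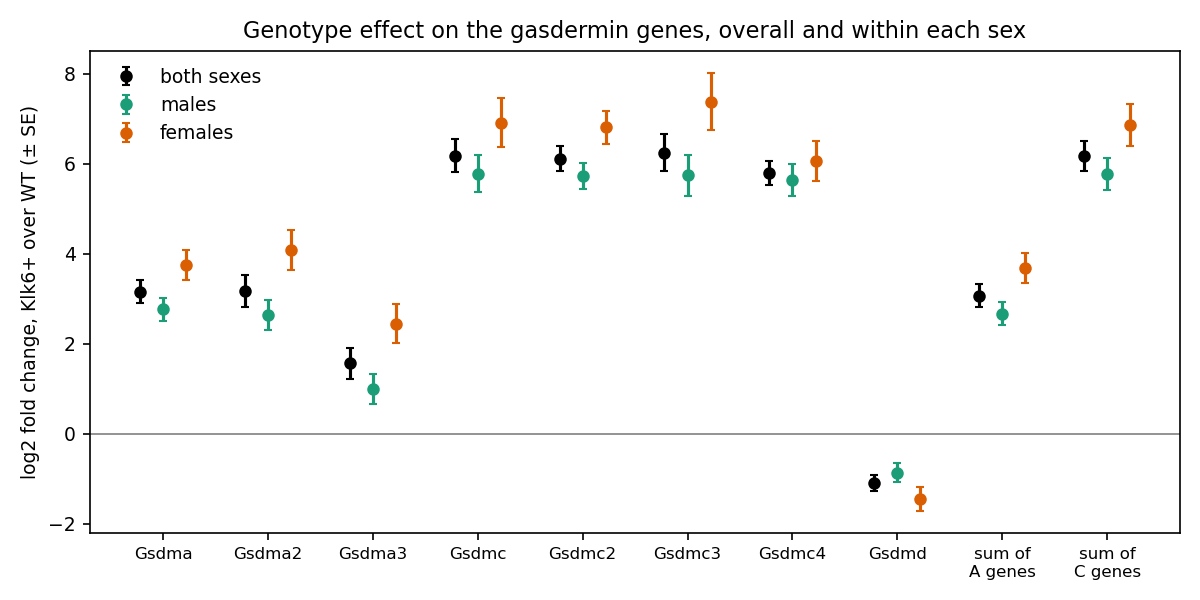
Log2 fold change of Klk6+ over WT with its standard error for each gasdermin gene and for the summed gasdermin A and C genes, in both sexes together (black), in males (green) and in females (orange). Effects in females are drawn further from 0 for all 8 genes, for example 3.75 against 2.77 for Gsdma, and no such difference passed the test after adjustment. How often this holds among all genes was not counted.

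Of the other genes of the family 1 could be tested, and it was not called. The gene of gasdermin E is listed under its older symbol Dfna5 and averaged 2.55 ± 0.289 CPM in Klk6+ and 2.62 ± 0.496 CPM in WT (SD, n = 5 each; log2 fold change -0.04 ± 0.18, edgeR adjusted p = 0.843). Pejvakin, a relative needed for hearing, is listed under the older symbol Dfnb59 and had 4 counts in Klk6+ and 1 in WT over all libraries, too few to test.

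Among genes of proteases that cut gasdermins, 5 of 6 tested rose and 1 fell, beside 37.7% higher and 35.1% lower among all genes, and 5 to 7 were called with 1 library left out. Casp1, of the caspase that inflammasomes activate, averaged 69.0 ± 17.8 CPM in Klk6+ and 18.3 ± 4.24 CPM in WT (log2 fold change 1.94 ± 0.22, edgeR adjusted p = 2.14e-05). Casp4, which in mice encodes caspase 11, the cytosolic sensor of bacterial lipopolysaccharide, rose by 1.67 ± 0.14, Gzmb by 1.33 ± 0.43 and Casp8 by 0.40 ± 0.11. Gzma, the granzyme gene of killer lymphocytes, was the 1 that fell (-1.17 ± 0.48, edgeR adjusted p = 0.0495). It was low, with 89 counts over all Klk6+ libraries and 220 over all WT libraries. Its libraries overlapped, at 0.410 to 0.793 CPM in Klk6+ and 0.413 to 2.15 CPM in WT. Gzma and Gzmb, both granzyme genes, were named after their values were seen. The neutrophil protease genes Elane and Ctsg were too low to test, at 0.0283 to 0.926 and 0.142 to 0.868 CPM in Klk6+ libraries and 0.0481 to 0.276 and 0.0293 to 0.230 CPM in WT libraries.

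Inflammasome sensors and their adaptor moved both ways, 5 higher and 7 lower of 12 tested, with a median log2 fold change of -0.43. Among all genes tested, 37.7% were higher and 35.1% lower. Nlrp3, of the sensor of membrane and ion disturbance, averaged 13.5 ± 7.74 CPM in Klk6+ and 2.04 ± 0.704 CPM in WT (SD, n = 5 each; log2 fold change 2.76 ± 0.42). The cytosolic DNA sensor gene Aim2 rose by 2.64 ± 0.29, Nlrp1a by 1.23 ± 0.13, Mefv, of the sensor pyrin, by 1.05 ± 0.38 (named after its value was seen) and Pycard, of the adaptor ASC, by 0.90 ± 0.09. The 7 that fell, also named after their values were seen, were Naip6 (-2.16 ± 0.39), Naip1 (-1.62 ± 0.39), Nlrc4 (-1.55 ± 0.35), Naip2 (-1.30 ± 0.33), Naip5 (-1.24 ± 0.27), Nlrp10 (-0.53 ± 0.21) and Nek7 (-0.34 ± 0.08). Naip6 and Naip1 were low, with 32 and 54 counts over all Klk6+ libraries and 168 and 208 over all WT libraries. They passed the filter on low counts through the WT group, so their call follows in part from the filter. Nlrc4 and the Naip genes encode the sensor of bacterial flagellin and secretion proteins, and the Naip genes are close paralogues that could share reads. Nlrp1a has a close paralogue in Nlrp1b, among which reads could be split. Nlrp1b, too low to test, went the other way, with 16 counts over all Klk6+ libraries and 116 over all WT libraries. All 4 tested genes of cytokines that leave through gasdermin pores or on lysis rose. Il1b averaged 151 ± 89.1 CPM in Klk6+ and 2.06 ± 0.949 CPM in WT (SD, n = 5 each; log2 fold change 6.23 ± 0.52), Il1a rose by 4.01 ± 0.30, Il33 by 3.14 ± 0.28 and Il18 by 0.91 ± 0.18. By group means, Klk6+ held more Casp1, Casp4 and Il1b message and less Gsdmd message than WT, though the Gsdmd libraries overlapped.

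Of 18 tested genes of gasdermin D modifiers, membrane rupture and membrane repair, 12 rose and 2 fell, with a median log2 fold change of 0.44. The shares among all genes were 37.7% higher and 35.1% lower. The rises were small: Pdcd6, of a calcium sensor in membrane repair, by 0.92 ± 0.07, Vps4b and Chmp2a, of the ESCRT machinery that sheds damaged membrane, by 0.78 ± 0.08 and 0.76 ± 0.08, and Lamtor3, of the Ragulator complex needed for gasdermin D pores, by 0.66 ± 0.09. Ninj1, whose product ruptures the membrane late in pyroptosis, fell by 1.08 ± 0.24 and Vps4a by 0.32 ± 0.06, both named after their values were seen.

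Regulators known to act on gasdermin transcription were split, 4 higher and 5 lower of 11 tested. This list and the necroptosis list below stand beside 37.7% higher and 35.1% lower among all genes. Irf2, of a transcription factor that Gsdmd depends on in macrophages and endothelium, averaged 24.0 ± 2.79 CPM in Klk6+ and 50.4 ± 8.35 CPM in WT (SD, n = 5 each; log2 fold change -1.06 ± 0.10, edgeR adjusted p = 5.28e-06). Smad3, of TGF-beta signalling, fell by 1.78 ± 0.13, while Smad2 rose by 0.39 ± 0.07 and Il13ra1, of the receptor chain for interleukin 13, rose by 0.74 ± 0.13. Named after their values were seen, Il4 (2.36 ± 0.79) and Il4ra (1.09 ± 0.24) also rose, and Tgfbr2 (-0.91 ± 0.21), Irf1 (-0.59 ± 0.22) and Smad4 (-0.26 ± 0.06) fell. Named in the same way, Stat6 (-0.01 ± 0.11) and Tgfbr1 (-0.25 ± 0.10) were not called. Il13 was too low to test, with 45 counts over all Klk6+ libraries and 10 over all WT libraries. Il4 was near the floor, with 130 counts over all Klk6+ libraries and 28 over all WT libraries. Its libraries overlapped, at 0.174 to 1.70 CPM in Klk6+ and 0 to 0.358 CPM in WT (edgeR adjusted p = 0.021). With 1 library left out 7 to 10 of these regulators were called. In the necroptosis list, another lytic death pathway, 3 of 6 rose and 1 fell: Ripk3 (1.77 ± 0.25), Mlkl (0.70 ± 0.21) and Fadd (0.35 ± 0.11) rose, and Zbp1, an interferon-induced sensor, fell by 2.81 ± 0.28.

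**Figure D5:**
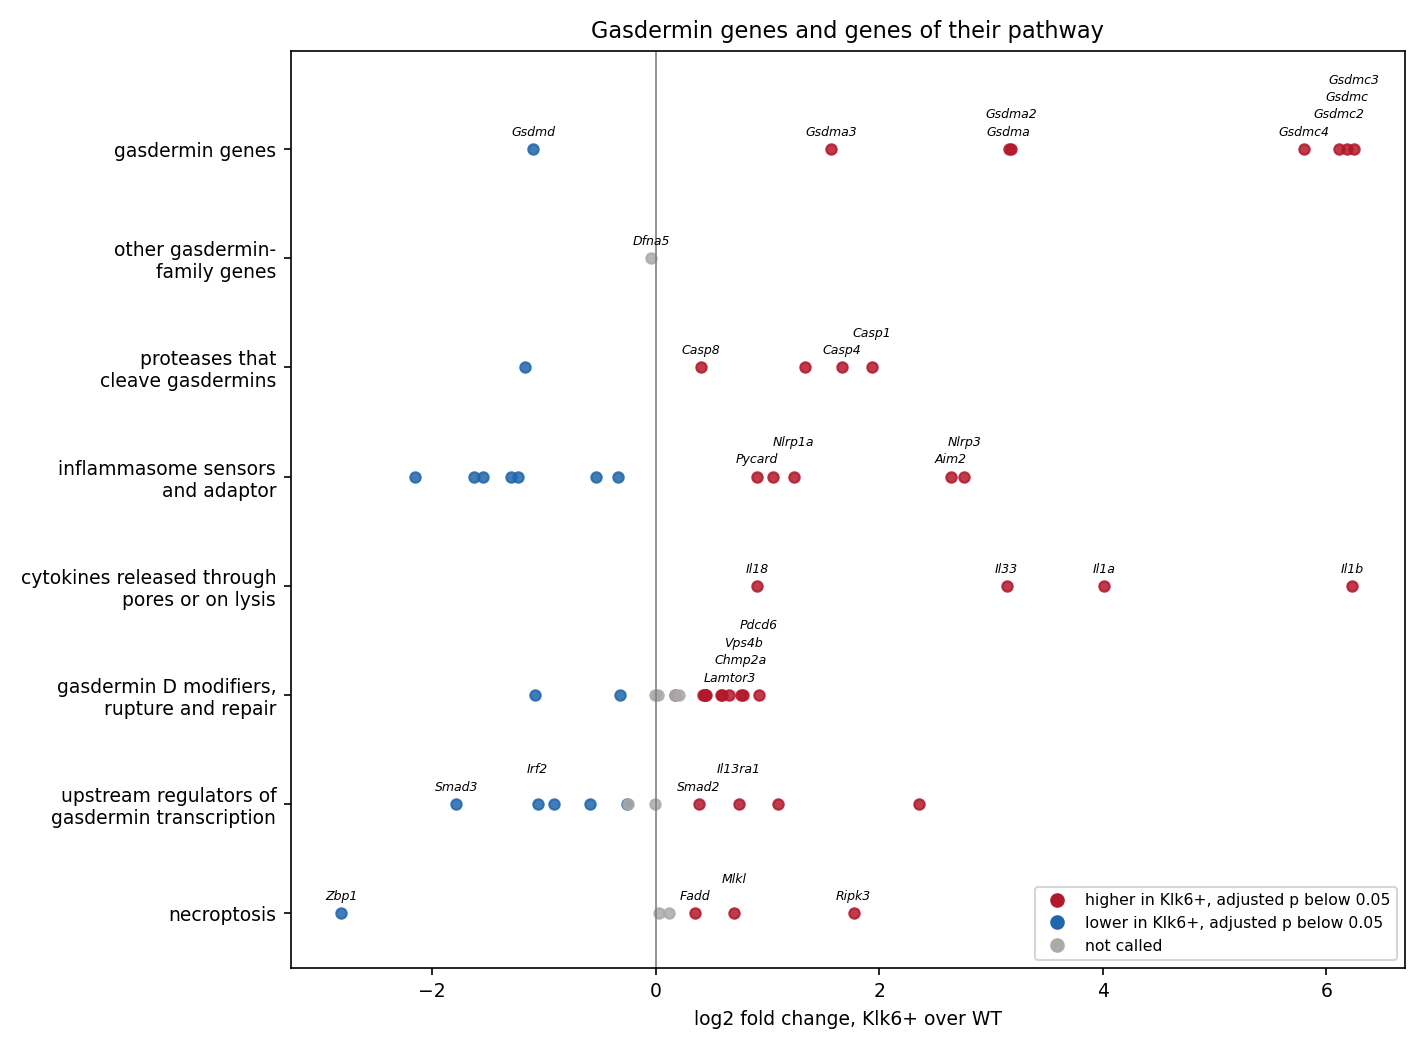
Log2 fold change of Klk6+ over WT for the 8 gasdermin genes (top) and for the tested genes of 7 pathway lists, apart from 1 protease gene, with red for genes called higher, blue for genes called lower and grey for the rest; genes chosen by rule are named. The gasdermin C genes, at 5.80 to 6.25, and Il1b, at 6.23, lie furthest right.

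Neighbours on the chromosome were compared to see how far the changes reached. Psmd3, a proteasome subunit gene 4.8 kb beyond Gsdma, rose by 1.07 ± 0.09, whereas Ormdl3, 39.0 kb beyond Gsdma3, had a log2 fold change of -0.19 ± 0.14 (edgeR adjusted p = 0.248). Fam49b, 16.8 kb beyond Gsdmc4, had -0.03 ± 0.16, and the nearest listed gene on the other side of the gasdermin C group was Myc, 1785.6 kb away (0.79 ± 0.27). Beside Gsdmd, Zc3h3 had -0.01 ± 0.12 and Mroh6 rose by 1.49 ± 0.19. Of these 6 neighbours only Mroh6 had a change larger in size than that of the gasdermins it stands beside, and its sign was the opposite of that of Gsdmd.

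Genes that varied most like the gasdermins among mice of 1 genotype and sex were sought by the Pearson correlation of deviations of log2(CPM + 1) from the 4 genotype-by-sex means over the 10 libraries, which leaves 6 degrees of freedom. These are the highest of 13853 to 13856 correlations each and are given as a description. For the summed gasdermin A genes they were Fmn1 (0.994), Chmp1b (0.985), Aloxe3 (0.979), of an epidermal lipoxygenase of barrier formation, and AI661453 (0.978). For the summed gasdermin C genes they were Ptprg (0.981), Gm13889 (0.978), Nfkb2 (0.978) and Fnbp4 (0.972). For Gsdmd they were Vldlr (0.993), Stx7 (0.992), the leukocyte integrin gene Itgal (0.987) and the interferon-inducible Ifi205 (0.983).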

How the data were processed

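Skin RNA of 10 mice was sequenced from polyA-selected libraries as single-end reads of 50 bases, per the labels' protocols. Read counts were deposited by the authors as whole numbers per gene symbol, with no normalization, beside FPKM values scaled by the authors. Per the submitters' processing notes, the tools were Cufflinks 2.2.1, HTSeq, TopHat2 and SAMtools, and the builds mm10 and GRCm38, with no role stated. Annotation, strand setting and handling of multiply matching reads: not given in the sources used here.

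Counts were filtered with filterByExpr (minimum count 10), scaled by TMM and tested with edgeR 4.0.16 in R 4.3.3 (quasi-likelihood, genotype with sex as covariate). Standard errors are the log2 fold change over the square root of F. Near copies were summed within the full table and refitted. The interaction came from 4 genotype-by-sex means. Shares were compared by exact permutation over 252 assignments. Alternatives used DESeq2 1.42.0, limma 3.58.1 on counts or log2(FPKM + 0.1 or 1), other scalings, no filter, genotype alone, and each library left out. Positions and transcripts came from GENCODE M21 (GRCm38), matched by symbol. Older symbols came from RefSeq. No pair of libraries of 1 genotype agreed within sampling noise (lowest chi-square per degree of freedom 35.4).

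Replicate numbers follow accession order within a genotype and pair no samples. P-values set a difference against the spread between these mice. The members and lists were chosen with earlier results of these data known. Named genes were the 8 members, Klk6, up to 4 called genes of smallest p per pathway list, chromosomal neighbours and the 4 most alike genes per group. Of the protease list, 1 gene that the counts include is not reported here.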

Additional observations from a re-analysis of the deposited data

Results flagged for a closer look

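Some libraries stood apart from the other 4 of their genotype by Dixon's ratio of the gap to the range, with a critical value of 0.71 for 5 libraries. Of 36 groups of values examined 5 were picked out, where chance picks about 1 in 20. In WT 2 Gsdmc was highest among WT libraries at 3.37 CPM, and so was the gasdermin C sum at 4.02 CPM, which shares those counts. Klk6+ 5 had the highest Gsdmc2 level of its group at 27.1 CPM and the highest Gsdma3 share of gasdermin A counts at 4.62%, still under every WT share. WT 4 had the lowest Gsdma2 share, 2.58%, on 23 counts of Gsdma2.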

How the results depend on the processing

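All 8 gasdermin calls, 7 higher and 1 lower, stood under each of 20 alternatives (4 of scaling or filter, 1 of covariate, 5 of tool or unit, 10 with 1 library left out). The highest adjusted p of any member was 0.00913, for Gsdma3 with 1 library left out. With log2(FPKM + 1) the differences of low genes shrank by construction, to 1.60 for Gsdmc3, 1.96 for Gsdmc4, 3.07 for Gsdmc2 and 2.12 for Gsdma2. With 1 library left out the log2 fold change ran from 2.88 to 3.23 for summed gasdermin A, 5.96 to 6.55 for summed gasdermin C and -1.24 to -1.02 for Gsdmd. Of the 6 differences in share that had not passed the test, all but that of Gsdmc4 changed sign with 1 library left out, and the cause was not tested. In percentage points they ran from -4.06 to 5.32 for the gasdermin A share of all gasdermin counts. They ran from -0.0169 to 0.438 for Gsdma2 within gasdermin A, and within gasdermin C from -0.0854 to 5.87 for Gsdmc, -3.70 to 0.555 for Gsdmc2 and -0.540 to 0.960 for Gsdmc3. The log2 interaction of Gsdmc4 ran from -0.0296, without WT 2, to 0.726. Of 513 values recomputed, 8 changed sign, all among these shares and that interaction, and no gasdermin gene, sum or share crossed the threshold. Counts of pathway genes called did move with 1 library left out: 5 to 7 proteases, 10 to 12 inflammasome genes, 13 to 14 modifiers, 7 to 10 regulators and 3 to 4 necroptosis genes. WT counts of Gsdmc3 and Gsdmc4 limit what depth can show for single copies. No paired analysis was possible because the replicate numbers are accession order and pair no mice.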
